A study of Mus musculus with 4 samples.

Results

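The genes described here are 10 genes of the unfolded protein response and of endoplasmic reticulum-associated degradation. They were chosen by symbol: the stress sensors Ern1, Atf6 and Eif2ak3, the transcription factor Xbp1, the cochaperone Dnajb9, and the degradation genes Edem1, Herpud1, Sel1l, Syvn1 and Derl1. All 10 were found among the 24169 genes of the deposited table. All 10 were also among the 12403 genes that had at least 1 FPKM in at least 2 libraries and were tested. FPKM, fragments per kilobase of gene and per fixed number of mapped reads, is a level per length of gene. The samples were C8-D1A cells, an established line labelled as mouse astrocytes from brain. They were left untreated (control, 2 libraries) or kept with 1 mM MBP for 24 h (2 libraries). The labels do not spell out MBP. The series title concerns the plasticizer DBP, dibutyl phthalate, whose main metabolite is monobutyl phthalate. No label says whether the libraries are from separate cultures, so p-values measure only how these libraries vary, which may be technical.

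When unfolded proteins build up in the endoplasmic reticulum, sensor proteins in its membrane signal to the nucleus and the ribosome. IRE1, the product of Ern1, is a kinase and nuclease that splices the Xbp1 transcript so that it encodes an active transcription factor. ATF6 is cut by Golgi proteases to release its own transcription factor domain, and PERK, the product of Eif2ak3, is a kinase that slows translation. The factors XBP1 and ATF6 switch on chaperones and the degradation machinery, which marks misfolded proteins, moves them back to the cytosol and hands them to the proteasome. These sensors act by phosphorylation, splicing and cleavage, none of which a gene-level FPKM records.

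The libraries held 23571000 to 25907000 reads, as worked out from the smallest steps between deposited values. The 10 genes were read at 472 reads (Dnajb9 in control 2) to 6490 reads (Atf6 in MBP 2). Counting alone gives a relative error of 4.60% at the fewest and 1.24% at the most reads. Libraries of 1 group differed from each other about as much as the groups did, with a root mean square difference of log2(FPKM + 1) of 0.209 to 0.235 within and 0.215 to 0.265 between groups. Of 11 listed astrocyte markers 5 reached the level for testing. Among these were Glul at 12.6 to 13.6 FPKM, S100b at 4.75 to 5.69 and Sox9 at 2.22 to 2.50, while others were nearly absent: Slc1a3 had 0 reads in both controls and in MBP 1 and 1 read in MBP 2, and Gja1 had 3 to 12 reads per library. The summed level of the list was 551 to 555 FPKM in controls and 510 to 523 in MBP, most of it Vim. The oligodendrocyte lineage list summed to 113 to 119 FPKM in controls and 105 FPKM in both MBP libraries, most of it Sox10. The neuron list summed to 32.6 to 35.4 FPKM in controls and 25.5 to 25.9 in MBP, most of it Tubb3. For the fibroblast and pericyte list the sums were 7.20 to 7.75 and 6.49 to 6.89 FPKM, most of it Pdgfrb. Microglia and macrophage markers summed to 4.72 to 4.77 and 4.48 to 5.11 FPKM, most of it Cd68. Endothelial markers summed to 5.62 to 6.24 and 6.13 to 6.20 FPKM, most of it Flt1. Both of these sums overlapped between groups. The part that cell identity plays in the values below was not tested.

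In the control cells the 10 transcripts ran from 4.05 FPKM for Ern1 to 25.3 FPKM for Herpud1. Atf6, at 24.6 FPKM, stood far above the other sensors, Eif2ak3 at 5.73 and Ern1 at 4.05. The degradation genes lay close together at 18.5 to 25.3 FPKM, apart from Edem1, which lay lower at 11.4 and 12.6 FPKM in its libraries. Xbp1 stood at 19.7 and Dnajb9 at 8.23 FPKM. The 2 control libraries kept Ern1, Eif2ak3, Dnajb9, Edem1 and Sel1l apart from their neighbours in this order. Atf6 also stood apart from Syvn1 below it. The values of Herpud1 and Atf6 overlapped, as did those of Syvn1 and Derl1 and those of Derl1 and Xbp1.

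Between MBP and control cells Xbp1 and Herpud1 differed most among the 10, with lower values in MBP, while Atf6 had a higher mean. A log2 fold change is here the difference of mean log2(FPKM + 1), MBP minus control, which understates the change of low genes. In limma's moderated test none of the 10 passed an adjusted p of 0.05, and neither did any gene of the 12403 tested (0%). The lowest adjusted p over all genes was 0.392. Limma-voom on recovered reads called 18 genes (0.124%), none of them among the 10. Of the 10 genes 9 had a negative log2 fold change, against 51.6% of all genes tested. Of the 10, 5 had MBP values below both controls, where 23.5% of all genes did, and 1 had MBP values above both, where 21.3% did. In either direction that is 6 of 10, against 44.8% of all genes. At an unadjusted p under 0.05 there were 2 lower genes (5.87% of all genes) and 1 higher gene (3.81%). The count of 9 was 7 without control 1 or without MBP 1, and 8 without control 2, without MBP 2, or with TPM or median-of-ratios scaling. In such bulk samples fewer cells expressing a gene and less RNA per cell cannot be told apart. With 2 libraries in each group an exact permutation test cannot reach a p under 0.333, and none was run.

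**Figure D1:**
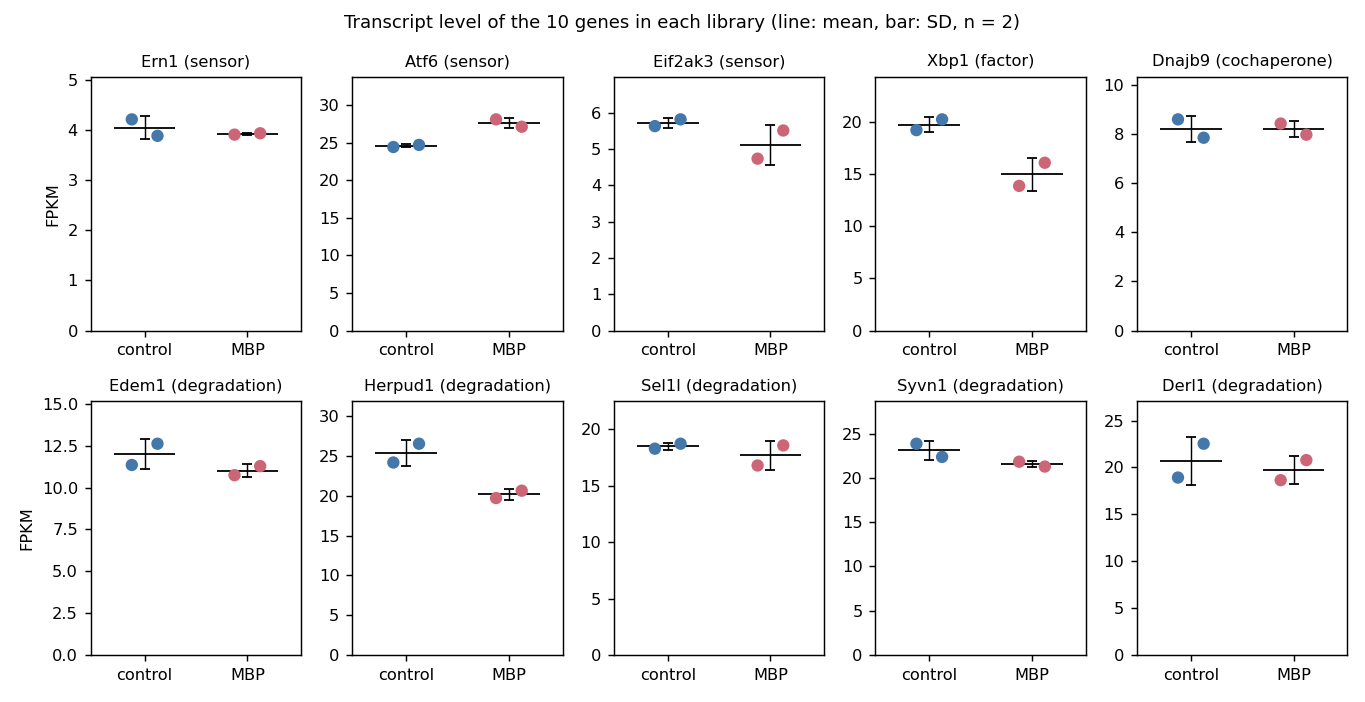
FPKM (vertical axis, from 0) of each of the 10 genes in the control libraries (blue) and MBP libraries (red), with library 1 on the left and library 2 on the right of each group. Lines are means and bars SD (n = 2). Atf6 is higher in both MBP libraries, and Xbp1 and Herpud1 are lower in both with the widest gaps.

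The sensors had fold changes of both signs, and Atf6 was the one with a higher mean in MBP. Atf6 (chromosome 1, 170704674 to 170867771, minus strand, GRCm38) was read at 24.4 FPKM in control 1, 24.7 in control 2, 28.1 in MBP 1 and 27.1 in MBP 2. Both MBP values lay above both controls. The means were 24.6 ± 0.197 and 27.6 ± 0.698 FPKM (SD, n = 2 each). The log2 fold change was 0.16 (SE 0.0522, 95% interval 0.03 to 0.30). Its unadjusted p was 0.0261 and limma's adjusted p was 0.503. Atf6 had the most reads of the 10 genes, 5378 to 6490 per library, and its fold change stood above 90.8% of all genes tested. It stayed between 0.14 and 0.19 with any 1 library left out.

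Eif2ak3, the gene of PERK (chromosome 6, 70844515 to 70905245, plus strand), stood at 5.64 FPKM in control 1 and 5.82 in control 2, against 4.74 in MBP 1 and 5.52 in MBP 2. The groups did not overlap, but the gap between the nearest libraries, 0.121 FPKM, was smaller than the distance between the MBP libraries. Its log2 fold change was -0.14 (SE 0.0856, 95% interval -0.36 to 0.08, limma adjusted p = 0.600). It was -0.05 without MBP 1, the lowest of the 4 libraries. Of its exon bases 8.05% are shared with the unclassified gene Gm43292 on the other strand.

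Ern1, the gene of IRE1 (chromosome 11, 106394650 to 106487852, minus strand), was read at 4.21 FPKM in control 1, 3.88 in control 2, 3.91 in MBP 1 and 3.93 in MBP 2. The MBP values lay between those of the controls. Its log2 fold change was -0.04, with a 95% interval of -0.23 to 0.15, so a change of either sign within that range is not excluded by these libraries. Without control 1 it was 0.011. Ern2, the IRE1 relative of gut and airway epithelium, had reads in 1 library only (0.0141 FPKM in MBP 1).

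Xbp1, the factor that IRE1 splices, had lower values in both MBP libraries. The groups overlapped for Dnajb9, a cochaperone also called ERdj4 that binds IRE1 and misfolded proteins. Xbp1 (chromosome 11, 5520659 to 5525893, plus strand) stood at 19.2 FPKM in control 1 and 20.2 in control 2, against 13.9 in MBP 1 and 16.1 in MBP 2. Each MBP value was below each control by at least 3.13 FPKM. The means were 19.7 ± 0.726 and 15.0 ± 1.57 FPKM (SD, n = 2 each), 24.1% lower in MBP. The log2 fold change was -0.38 (SE 0.0842, 95% interval -0.59 to -0.16, limma adjusted p = 0.486), and 1.70% of all genes stood lower. This fold change ran from -0.48 to -0.28 with any 1 library left out. The FPKM counts spliced and unspliced Xbp1 together.

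Dnajb9 (chromosome 12, 44205559 to 44210326, minus strand) was read at 8.60 FPKM in control 1, 7.86 in control 2, 8.43 in MBP 1 and 7.98 in MBP 2. Here the MBP values lay inside the control range. The log2 fold change was -0.0028 (95% interval -0.18 to 0.18), and its sign turned with TPM or median-of-ratios scaling and without control 1 or MBP 2. Dnajb9 is known as an Xbp1 target.

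**Figure D2:**
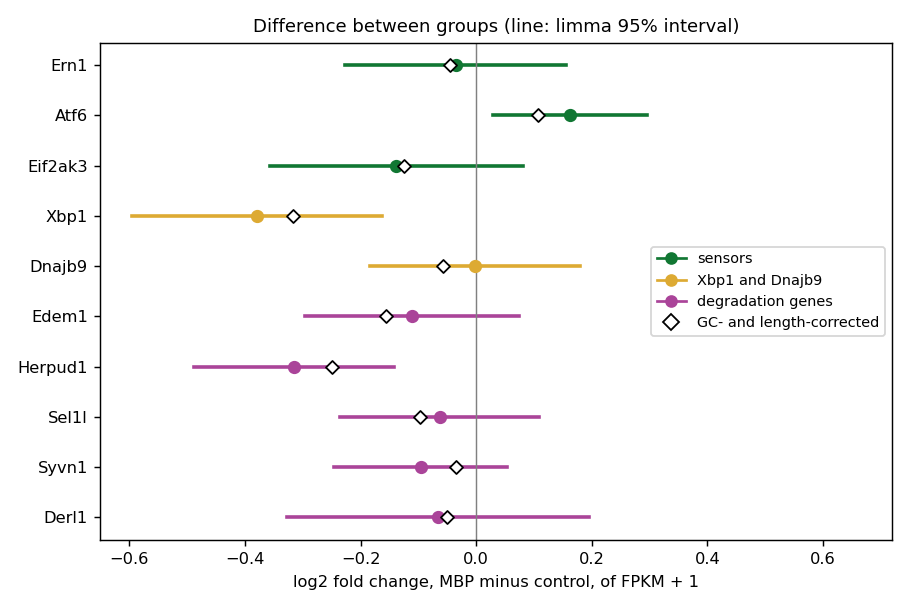
Log2 fold change of FPKM + 1, MBP minus control (horizontal axis), for each gene, with limma's 95% interval as a line and colour by role. White diamonds give the value after correction for GC content and length. The intervals of Atf6, Xbp1 and Herpud1 exclude 0 before adjustment for multiple testing, and those of the other 7 include it.

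All 5 degradation genes had negative fold changes, of which Herpud1 stood well below the rest. HERP, its product, is a short-lived membrane protein that gathers the retrotranslocation complex around the ubiquitin ligase HRD1. HRD1 itself is the product of Syvn1. The promoters of these genes are shown because each holds an exact match to a known stress element. They come from RefSeq on GRCm38.p6, plus strand, chr8:94386179-94386478 for Herpud1 and chr19:6046326-6046625 for Syvn1, 250 bases before to 50 after the annotated start. Capitals mark the fixed letters of the match, which is ERSE-II (ATTGGNCCACG) in Herpud1 and ERSE (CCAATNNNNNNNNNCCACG) in Syvn1.
Herpud1: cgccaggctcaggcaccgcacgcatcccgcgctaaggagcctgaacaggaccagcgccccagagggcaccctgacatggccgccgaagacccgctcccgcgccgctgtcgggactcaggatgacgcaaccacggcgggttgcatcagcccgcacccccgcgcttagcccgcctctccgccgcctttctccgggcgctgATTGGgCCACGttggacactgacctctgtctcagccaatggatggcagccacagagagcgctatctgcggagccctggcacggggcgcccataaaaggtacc
Syvn1: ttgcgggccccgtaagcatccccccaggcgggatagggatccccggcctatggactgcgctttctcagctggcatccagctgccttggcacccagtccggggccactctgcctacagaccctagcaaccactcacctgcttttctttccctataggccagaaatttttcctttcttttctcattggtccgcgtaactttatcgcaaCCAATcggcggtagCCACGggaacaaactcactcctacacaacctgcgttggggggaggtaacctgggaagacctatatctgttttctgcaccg
The Herpud1 match lies at chr8:94386377-94386387, 52 to 42 bases before the start, and the Syvn1 match at chr19:6046532-6046550, 44 to 26 bases before it.

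Herpud1 (chromosome 8, 94386438 to 94395377, plus strand) stood at 24.2 FPKM in control 1 and 26.5 in control 2, against 19.7 in MBP 1 and 20.6 in MBP 2. Both MBP libraries lay at least 3.54 FPKM below both controls, a gap wider than the distance within either group. The means were 25.3 ± 1.67 and 20.2 ± 0.658 FPKM (SD, n = 2 each), 20.5% lower in MBP. The log2 fold change was -0.32 (SE 0.0674, 95% interval -0.49 to -0.14). Limma's adjusted p was 0.464 and 2.86% of all genes stood lower. With any 1 library left out it lay between -0.38 and -0.25.

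Syvn1 (chromosome 19, 6046576 to 6053712, plus strand) was read at 23.8 FPKM in control 1, 22.4 in control 2, 21.8 in MBP 1 and 21.3 in MBP 2. The groups did not overlap, with a gap of 0.541 FPKM. The log2 fold change was -0.10 (95% interval -0.25 to 0.05, limma adjusted p = 0.599). It was -0.05 without control 1 and -0.14 without control 2. Of its exon bases 1.87% are shared with Mrpl49 on the other strand, and whether the counting used strand is not given in the sources used here.

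Edem1, a mannosidase-like protein that directs misfolded glycoproteins to degradation (chromosome 6, 108828641 to 108859356, plus strand), stood at 11.4 FPKM in control 1 and 12.6 in control 2, against 10.7 in MBP 1 and 11.3 in MBP 2. The groups came within 0.0788 FPKM of each other. Its log2 fold change was -0.11 (95% interval -0.30 to 0.07, limma adjusted p = 0.613), and -0.04 without control 2.

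Sel1l, the adaptor that holds HRD1 in its complex (chromosome 12, 91806043 to 91849157, minus strand), was read at 18.3 FPKM in control 1, 18.7 in control 2, 16.8 in MBP 1 and 18.6 in MBP 2. Derl1, the membrane protein Derlin-1 of the retrotranslocation channel (chromosome 15, 57869502 to 57892418, minus strand), stood at 18.9 FPKM in control 1 and 22.5 in control 2, against 18.6 in MBP 1 and 20.8 in MBP 2. In each gene an MBP library lay inside the control range, and in Derl1 the controls were farther apart than the group means. Log2 fold changes were -0.06 for Sel1l (95% interval -0.24 to 0.11) and -0.07 for Derl1 (-0.33 to 0.20). Without MBP 1 both were near 0, at 0.0054 for Sel1l and 0.0085 for Derl1, and Derl1 was 0.05 without control 2.

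The sensors were compared with the degradation genes as class means of log2(FPKM + 1) in each library. For the 3 sensors the mean was 3.26 in control 1, 3.25 in control 2, 3.23 in MBP 1 and 3.27 in MBP 2, so the groups overlapped. For the 5 degradation genes it was 4.30 and 4.39 in control 1 and 2 against 4.18 and 4.25 in MBP 1 and 2, lower in both MBP libraries. The difference between the classes, degradation genes minus sensors, was 1.04 and 1.14 without MBP and 0.95 and 0.98 with it. It was 0.13 lower in MBP on the log2 scale (log2 difference of -0.13, SD between replicates 0.0537), a description for which no test was made. Much of this value came from Atf6: with Atf6 left out of the sensors, a choice made after seeing the data, it was -0.044. Counting Xbp1 as a sensor and Dnajb9 as a degradation gene gave -0.012. Leaving out control 2 gave -0.07, and leaving out control 1 gave -0.18. The size of the difference thus depended on single genes and on which control library was used.

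Ratios within a library do not depend on scaling between libraries. Atf6 and Herpud1 had nearly equal levels in the controls, with an Atf6 to Herpud1 ratio of 1.01 and 0.932, and the ratio was 1.43 and 1.31 in the MBP libraries. The Atf6 to Xbp1 ratio was 1.27 and 1.22 in control libraries against 2.03 and 1.69 with MBP. Both ratios were higher in each MBP library than in each control. This follows from the values above, with Atf6 higher and Herpud1 and Xbp1 lower in both MBP libraries. The 2 ratios are therefore no separate support. Atf6 also differs from Herpud1 and Xbp1 in GC content, which a ratio does not remove. The ratio of the partners Syvn1 and Sel1l was 1.30 and 1.19 in control libraries against 1.30 and 1.15 with MBP, and these overlapped.

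Fold changes in these libraries followed the GC content of the transcript, which differs among the 10 genes. Across 12389 genes GC content and fold change had a Spearman's rho of -0.442. This is a description over genes, which share 4 libraries and are not replicates. Atf6 had 46.0% GC, below the median of 49.0% over all genes, and Xbp1 and Herpud1 each had 53.0%. After a correction for GC content and transcript length the log2 fold change was 0.11 for Atf6, -0.32 for Xbp1 and -0.25 for Herpud1. Xbp1 then stood above 2.26% and Herpud1 above 3.65% of all genes, and Atf6 above 85.1%. Edem1, at 46.2% GC, came to -0.16 and Dnajb9, at 40.6%, to -0.06, while Syvn1, at 56.6%, came to -0.03. In limma's test of the corrected values 0 of the 10 passed, and 9 were still negative. Degradation genes minus sensors was -0.097 after the correction, against -0.13 before it.

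**Figure D3:**
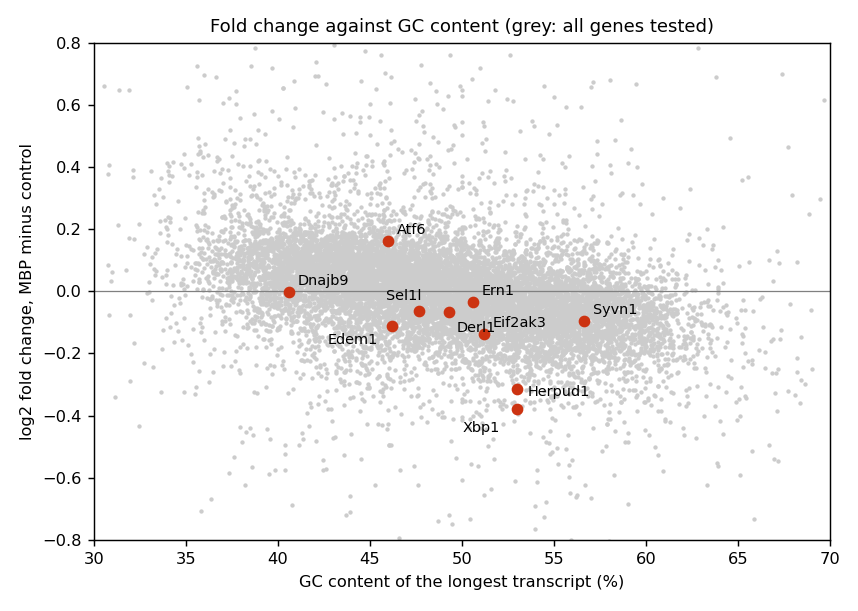
Log2 fold change, MBP minus control, against GC content of the longest transcript in percent, for all genes tested (grey) and the 10 genes (red). Xbp1 and Herpud1 lie below most genes of similar GC content, and 111 genes fall outside the plotted range.

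Other genes of the pathway were taken from lists. The ER chaperones, which fold proteins inside the compartment, were lower in MBP in 16 of 18 genes, with a median log2 fold change of -0.25 against -0.0048 over all genes. In 16 of the 18 both MBP values lay below both controls, where 23.5% of all genes did. Limma's test passed 0 of the 18, and the lowest adjusted p was 0.392. Limma-voom on recovered reads called 7 of them, all lower, against 0.124% of all genes in that fit. Sdf2l1, a cofactor of the chaperone BiP, was read at 17.2 FPKM in control 1, 17.3 in control 2, 10.9 in MBP 1 and 10.8 in MBP 2. Pdia4, a disulphide isomerase, stood at 102 FPKM in control 1 and 105 in control 2, against 81.1 in MBP 1 and 83.2 in MBP 2. Creld2, Manf and Hyou1 had log2 fold changes of -0.53, -0.40 and -0.35. Of the 10 genes described above, Xbp1 and Herpud1 lay below the median of this list and the other 8 above it.

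In the wider degradation machinery values went both ways. Of 40 further degradation genes in the table, all tested, 22 had a negative and 18 a positive fold change, with a median of -0.02. That median turned to 0.02 without control 2, 0.0080 without MBP 1 and 0.0047 with TPM, and was -0.07 without control 1 and -0.04 without MBP 2. Groups did not overlap in 10 genes that were lower and 10 that were higher in MBP, a share near that over all genes (23.5% and 21.3%), and 0 passed limma's test. Selenos, a partner of VCP at the membrane, had 24.9 ± 2.11 and 22.1 ± 0.447 FPKM, with a log2 fold change of -0.17. The lectin Os9 stood at -0.15. The ubiquitin enzymes Ube2k and Rnf185 stood at 0.17 and 0.12, and the cochaperone Dnajb14 at 0.15. The median over the 5 degradation genes described above was -0.10, but with Herpud1 set aside the others, at -0.11 to -0.06, lay inside the range of these 40 genes, -0.17 to 0.17.

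Regulators and relatives of the sensors also went both ways. Of the 16 listed genes 14 were tested, and 9 were negative and 5 positive, with a median of -0.0060 (0.02 with TPM, -0.02 without control 1) and 0 past limma's test. Atf6b, the paralogue of Atf6, was read at 22.9 FPKM in control 1, 24.7 in control 2, 20.9 in MBP 1 and 22.4 in MBP 2. Both MBP values were lower, where those of Atf6 were higher, but the gap was smaller than the distance within either group. The log2 fold change of Atf6b was -0.13 (limma adjusted p = 0.558). Mbtps2, the site-2 protease that cuts ATF6, stood at 4.91 FPKM in control 1 and 5.08 in control 2, against 5.59 in MBP 1 and 5.91 in MBP 2. Its log2 fold change was 0.17 (limma adjusted p = 0.514). Creb3, a membrane-bound factor cut by the same proteases, stood at -0.20, Wfs1, a membrane protein of the compartment, at -0.15, and Eif2ak1, a relative of PERK that senses haem, at 0.09.

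Targets of the PERK branch and its factor ATF4 had a median of -0.03 over 12 genes, 7 negative and 5 positive, and 0 passed limma's test. The median had no stable sign: it was 0.03 without control 2, 0.06 at a filter of 5 FPKM, 0.02 with quantile normalization and 0.04 after the GC and length correction. Without control 1 it was -0.05 and without MBP 2 also -0.05. Atf4 was read at 169 FPKM in control 1, 183 in control 2, 171 in MBP 1 and 168 in MBP 2, and Ddit3, which encodes the factor CHOP, had 12.6 and 11.1 against 11.3 and 11.7. In each of these genes the groups overlapped, and both were picked out with their values known. The stress factors Atf3 and Cebpb had log2 fold changes of -0.36 and -0.55, on 3.69 ± 0.0710 and 2.65 ± 0.103 FPKM for Atf3 and 2.90 ± 0.400 and 1.67 ± 0.300 for Cebpb. Ddit4, an mTOR inhibitor, and Nupr1 stood at -0.26 and -0.17, and Vldlr at 0.13.

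**Figure D4:**
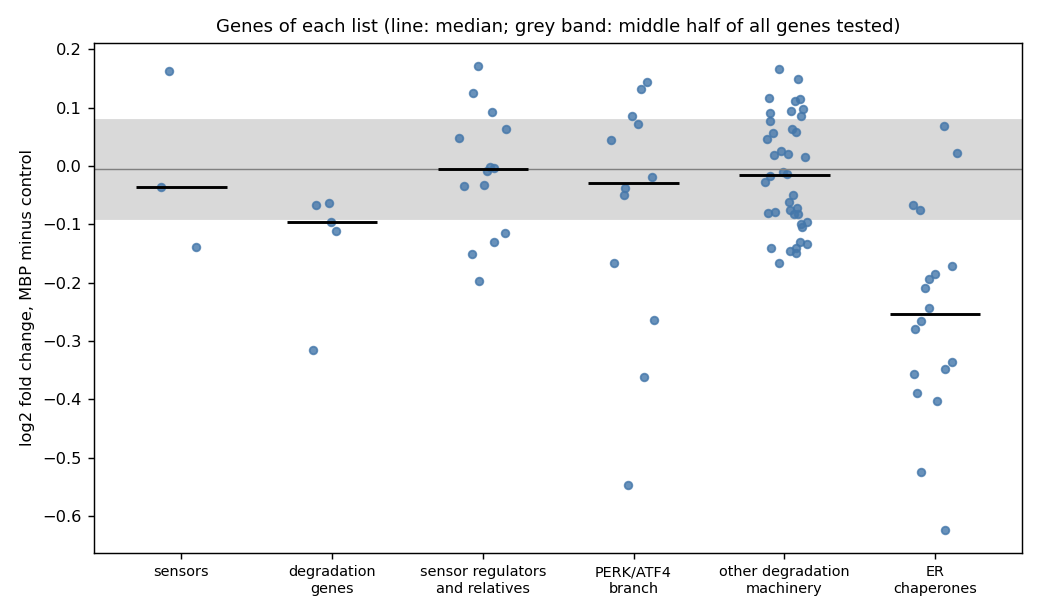
Log2 fold change, MBP minus control, of each tested gene (points) in 6 gene lists, with list medians as black lines. The grey band spans the middle 50% of all genes tested and the grey line their median. The ER chaperones lie mostly below the band, and the other lists spread on both sides of 0 except the 5 degradation genes, which are all below it.

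Annotation and promoter sequence of the 10 genes were also read. The genes were chosen for their place in this pathway, so the annotation terms restate that choice and are no finding. In the table's own annotation all 10 carried the term endoplasmic reticulum (858 of 24169 genes) and 8 the endoplasmic reticulum unfolded protein response (47 genes). Retrograde transport to the cytosol was held by Derl1, Herpud1, Sel1l and Syvn1 (16 genes in all). RefSeq promoters of 300 bases were matched for 8 of the 10 genes. An exact ERSE on either strand was held by Syvn1 alone of these 8, and by 0.119% of 32851 promoters. ERSE-II was held by Herpud1 alone, and by 0.0365% of promoters. The UPRE core (TGACGTGG) was found in 0 of the 8 and in 0.676% of promoters. The 5 letters CCACG, which end ERSE and ERSE-II, were in 6 of the 8 and in 32.8% of promoters. Among the 8308 tested genes with a promoter, 4469 held CCACG and 92 the UPRE core. Both are larger shares than over all promoters, so the 6 of 8 is no finding about these genes.

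Among the chaperones 13 had a promoter, of which 7 held ERSE and 1 held ERSE-II. Of 20 tested genes whose promoter held either element, 12 had MBP values below both controls and 13 a negative fold change. Over 8308 tested genes with a promoter these shares were 25.2% and 54.0%. Of the 20 genes, 10 were chaperones or members, and of the remaining 10 only 3 had a negative fold change, with a median of 0.09. In these remaining 10, MBP values lay below both controls in 2 genes and above both in 5. A match is a run of letters, and neither binding nor promoter activity was measured.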

How the data were processed

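RNA of 4 samples was sequenced after ribosomal RNA depletion with a directional kit, per the labels' protocols. Per the submitters' processing notes, bcl2fastq, HISAT2 and GRCm38 were used; the sources used here give no versions, counting program or annotation. FPKM values were deposited by the authors for 24169 genes in 1 table. Columns were matched to samples by title. Replicate numbers follow accession order and pair nothing.

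Values were tested as log2(FPKM + 1) for the 12403 genes that reached 1 FPKM in 2 or more samples. The test was limma 3.58.1 under R 4.3.3 (eBayes with trend, two-sided, Benjamini-Hochberg adjustment over all genes, threshold 0.05). The test was checked on simulated data, but the outcome of that check is not given here. No conclusion is drawn from it about missed or false calls at the fold changes reported above. Lengths and GC content came from GENCODE mouse release M21 (24121 identifiers found). Reads were recovered from the step of FPKM times exon length. At least 99.95% of nonzero values under 1000 reads in 6079 single-exon genes were whole within 0.05, and 93.8% to 94.0% over all genes. Each depth was chosen to make values of the same single-exon genes whole, so their share is no separate check. For Syvn1 and Derl1 reads were not whole, so theirs are approximate. Counting errors cover counting only.

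The 10 genes, the lists and the alternatives were chosen with earlier results of these data known, so list counts are descriptions. Named were all 10 genes and, from each other list, up to 5 genes with the lowest unadjusted p. Atf4, Ddit3 and the untested Ern2 were added with their values known. Alternatives were other pseudocounts, filters, scalings, a loess correction for GC content and length (span 0.5), spread models, each library left out, and limma-voom on recovered reads (mean of 10 or more).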

Additional observations from a re-analysis of the deposited data

How the results depend on the processing

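The count of called genes was 0 in 15 alternatives, and the exception was limma-voom on recovered reads with 18 of 14514 genes (0.124%). None of the 10 genes was among them, with Xbp1 at an adjusted p of 0.0922 and Herpud1 at 0.165, while 7 of the 18 chaperones were called, all lower. At an unadjusted p under 0.05 the main test had 473 higher and 728 lower genes, TPM 634 and 574, and the GC and length correction 412 and 446. Atf6, Eif2ak3, Xbp1, Edem1, Herpud1 and Syvn1 kept their sign in every alternative. The sign turned for Dnajb9 with TPM (0.019) and median-of-ratios scaling (0.0011). With 1 library left out, log2 fold changes ran from -0.061 to 0.056 for Dnajb9, from -0.083 to 0.011 for Ern1, from -0.13 to 0.0054 for Sel1l and from -0.19 to 0.054 for Derl1. Degradation genes minus sensors was -0.012 with Xbp1 and Dnajb9 reassigned and -0.044 without Atf6 (chosen after seeing the data). It was -0.18 to -0.07 with 1 library left out and -0.097 after the GC and length correction. The causes were not tested. No paired analysis was possible because the groups share fewer than 2 replicate numbers in the titles. The number of libraries limits the precision, and counting error adds 1.24% to 4.60% per value.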
